A study of Mus musculus with 8 samples.

Results

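The genes described here are a group of 9 known from blood stem and progenitor cells: the homeobox genes Hoxa5, Hoxa7, Hoxa9 and Hoxa10, the HOX partner gene Meis1, the coactivator gene Mn1, the surface protein genes Cd34 and Cd93, and the chromatin organiser gene Satb1. They were taken by symbol from 22878 genes measured by RNA-seq, and all 9 were found. Polyadenylated RNA came from progenitors sorted from the marrow of C57BL/6 mice, an inbred strain, with no treatment or altered allele named in the labels, and each of 4 populations had 2 libraries. ChILP are helper-like innate lymphoid progenitors (rChILP in the protocol), gated as negative for lineage markers, Flt3 and ST2 and positive for CD127, Kit and integrin α4β7. PD-1+ cells met that same gate and carried PD-1 without CCR6; the labels name them non-LTi progenitors, which give rise to innate lymphoid cells that are not lymphoid tissue inducers (LTi). CCR6+ cells, named as LTi progenitors, met it and carried CCR6 without PD-1. CLP, the common lymphoid progenitors, were gated as positive for Flt3, CD127, Kit and Sca-1 and negative for lineage markers and integrin α4β7. Before the sort, ChILP and CLP went through depletion of lineage-positive cells, whereas the PD-1+ and CCR6+ populations (the captured cells) came from marrow pulled down on magnetic beads by integrin α4β7. Any comparison across these pairs therefore also crosses the route of enrichment. The sources used here give neither the age nor the number of the mice, nor whether they were pooled.

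HOX proteins are homeodomain transcription factors encoded in clusters, and in adult blood those of the middle Hoxa genes are known from stem cells and early progenitors. MEIS1 is a homeodomain protein of the TALE class that binds DNA together with HOX proteins, and in mice high Hoxa9 and Meis1 together turn marrow progenitors leukaemic; MN1 is a coactivator that drives leukaemia with the same pair. CD34 is a sialomucin and CD93 a lectin-like receptor of the surface of early progenitors, and SATB1 folds chromatin in lymphoid cells and is known from the lymphoid priming of stem cells.

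Gene-level reads per library ranged over 7685188 to 13997897. The chi-square per gene between replicates was 38.2 to 76.3, above sampling noise in each group and highest for PD-1+ cells. The lowest value of any pair of libraries, 17.5, was between the number 2 libraries of the captured populations, below that of either with its own replicate. ChILP replicates 1 and 2 also lay nearer to CLP replicate 1, at 40.2 and 43.1, than to each other, at 62.5. Whether replicates are separate mice is not in the labels, and p-values therefore measure a spread between libraries that may be technical. Flt3, sorted for in CLP and against in the other gates, stood at 10.3 and 5.10 RPKM (reads scaled to transcript length and to library total) in ChILP, 6.55 and 5.54 in PD-1+, 7.98 and 6.70 in CCR6+, and 92.1 and 157 in CLP libraries. Pdcd1, which encodes PD-1, stood at 181 and 36.3 RPKM in PD-1+ and 0 and 1.10 in CCR6+ libraries. Ccr6 stood at 0 and 8.11 RPKM in PD-1+ and 84.2 and 23.6 in CCR6+ libraries. Between these populations Pdcd1 and Ccr6 RNA followed the gates. PD-1+ replicate 2, however, held Ccr6 at the level of ChILP libraries, which had 3.84 and 8.21 RPKM. Its Pdcd1 lay below that of both ChILP libraries, which had 70.9 and 92.8 RPKM.

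RefSeq promoter windows (build GRCm38.p6) were at hand for 7 of the 9 genes, all but Cd93 and Mn1. Those of Hoxa7, Hoxa9, Meis1 and Cd34 are shown because the levels of these genes separate the populations most steadily or, for the neighbours Hoxa7 and Hoxa9, make up most of the cluster's RNA. Each is the 250 bases before the annotated start, read 5′ to 3′ on the gene's strand, which is minus for Hoxa7, Hoxa9 and Meis1 and plus for Cd34. Capitals mark TTTATG, a core known for posterior HOX proteins.
Hoxa7, chr6:52218574-52218823: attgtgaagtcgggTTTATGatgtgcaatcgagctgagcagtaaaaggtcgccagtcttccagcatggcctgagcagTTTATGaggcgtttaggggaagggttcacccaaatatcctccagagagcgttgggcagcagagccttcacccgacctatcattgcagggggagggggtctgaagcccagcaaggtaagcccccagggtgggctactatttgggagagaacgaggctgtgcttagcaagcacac
Hoxa9, chr6:52227371-52227620: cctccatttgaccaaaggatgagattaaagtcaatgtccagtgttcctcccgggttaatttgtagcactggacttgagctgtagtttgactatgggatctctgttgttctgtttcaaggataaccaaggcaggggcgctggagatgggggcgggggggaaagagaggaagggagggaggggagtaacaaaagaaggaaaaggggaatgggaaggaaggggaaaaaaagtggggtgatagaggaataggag
Meis1, chr11:19018970-19019219: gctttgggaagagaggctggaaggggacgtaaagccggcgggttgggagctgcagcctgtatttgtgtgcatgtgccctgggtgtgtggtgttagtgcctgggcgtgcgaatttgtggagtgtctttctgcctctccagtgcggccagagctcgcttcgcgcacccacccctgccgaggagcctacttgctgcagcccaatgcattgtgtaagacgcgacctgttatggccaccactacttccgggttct
Cd34, chr1:194938571-194938820: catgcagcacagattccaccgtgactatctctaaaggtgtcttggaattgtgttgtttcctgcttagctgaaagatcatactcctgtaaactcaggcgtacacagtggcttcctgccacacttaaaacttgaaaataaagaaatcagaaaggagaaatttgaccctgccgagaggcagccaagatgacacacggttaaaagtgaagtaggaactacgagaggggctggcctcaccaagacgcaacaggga
The 12 windows of the 7 genes were searched on both strands for 4 motifs. TTTATG stood in 10.8% of all 32851 promoter windows of this length, TAATTA, a general homeodomain core, in 4.84%, TGACAG, the core of MEIS and PKNOX proteins, in 15.9%, and TGATNNAT, a composite of PBX and HOX, in 7.68%. The matches were 2 copies of TTTATG before Hoxa7, which begin 236 and 173 bases before the start; these letters are not in the other windows. A match is a description of the sequence only.

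Among the homeobox genes, Hoxa7 and Hoxa9 carried most of the RNA and were highest in CLP. Hoxa9 (NM_010456) stood at 2.84 and 5.25 RPKM in ChILP, 0.696 and 0.488 in PD-1+, 0.947 and 1.18 in CCR6+, and 7.36 and 15.4 in CLP libraries. No group overlapped its neighbour in this order, in which CLP was followed by ChILP, CCR6+ and PD-1+ cells. Hoxa7 (NM_010455) stood at 4.01 and 8.04 RPKM in ChILP, 1.48 and 0.252 in PD-1+, 2.88 and 2.11 in CCR6+, and 7.52 and 17.4 in CLP libraries. It had the same order, but ChILP replicate 2 lay above CLP replicate 1, so ChILP and CLP overlapped.

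Hoxa5 and Hoxa10, on either side of that pair, were low. Hoxa5 (NM_010453) stood at 1.46 and 1.31 RPKM in ChILP, 2.57 and 0.164 in PD-1+, 0 and 0.475 in CCR6+, and 0.946 and 3.49 in CLP libraries, from 0 to 96 reads. Each group overlapped the next, and the PD-1+ replicates lay further apart than the means of any pair of groups. Hoxa10 (NM_008263) stood at 0.363 and 0 RPKM in ChILP, 0.322 and 0 in PD-1+, 0.547 and 0 in CCR6+, and 0.692 and 1.68 in CLP libraries. Replicate 2 of ChILP, PD-1+ and CCR6+ cells held no Hoxa10 read, while both CLP libraries held 19 and 63.

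Meis1 and Mn1 were also highest in CLP. Meis1 (NM_001193271) stood at 4.82 and 8.40 RPKM in ChILP, 4.56 and 3.83 in PD-1+, 2.04 and 2.81 in CCR6+, and 13.8 and 13.0 in CLP libraries. Its order was CLP, ChILP, PD-1+ and CCR6+, with no overlap at any step, and the CLP replicates were the closest together of the 9 genes in relative terms. Mn1 (NM_001081235) stood at 0.393 and 2.54 RPKM in ChILP, 2.19 and 0.392 in PD-1+, 0.473 and 0.190 in CCR6+, and 10.02 and 18.4 in CLP libraries. Only the step between CLP and the rest was free of overlap.

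Cd34 was the most abundant of the 9 genes in 7 of the 8 libraries, all but PD-1+ replicate 1, where Satb1 lay above it. Cd34 (NM_001111059) stood at 58.4 and 59.8 RPKM in ChILP, 8.98 and 6.15 in PD-1+, 6.92 and 9.42 in CCR6+, and 90.8 and 167 in CLP libraries. ChILP lay between CLP and the captured groups with no overlap, and PD-1+ and CCR6+ cells overlapped. By its mean level Cd34 lay above 89.4% of tested genes in ChILP, 52.4% in PD-1+, 56.0% in CCR6+ and 95.9% in CLP.

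Cd93 and Satb1 were higher in both CLP libraries than in all others. Cd93 (NM_010740) stood at 6.63 and 8.19 RPKM in ChILP, 6.30 and 4.10 in PD-1+, 4.58 and 5.43 in CCR6+, and 21.5 and 26.4 in CLP libraries. ChILP again lay between CLP and the captured groups with no overlap, by a narrow margin over PD-1+ replicate 1, and PD-1+ and CCR6+ cells overlapped. Satb1 (NM_009122) stood at 4.06 and 4.86 RPKM in ChILP, 10.6 and 4.16 in PD-1+, 4.02 and 3.64 in CCR6+, and 16.6 and 38.5 in CLP libraries. PD-1+ replicate 1 was the highest of the libraries outside CLP for Satb1, and PD-1+ replicate 2 lay within the ChILP range, while both CCR6+ libraries lay just below it. Both CLP libraries lay above the other 6 for 7 of the 9 genes, all but Hoxa5 and Hoxa7, which 9.49% of all tested genes did.

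**Figure D1:**
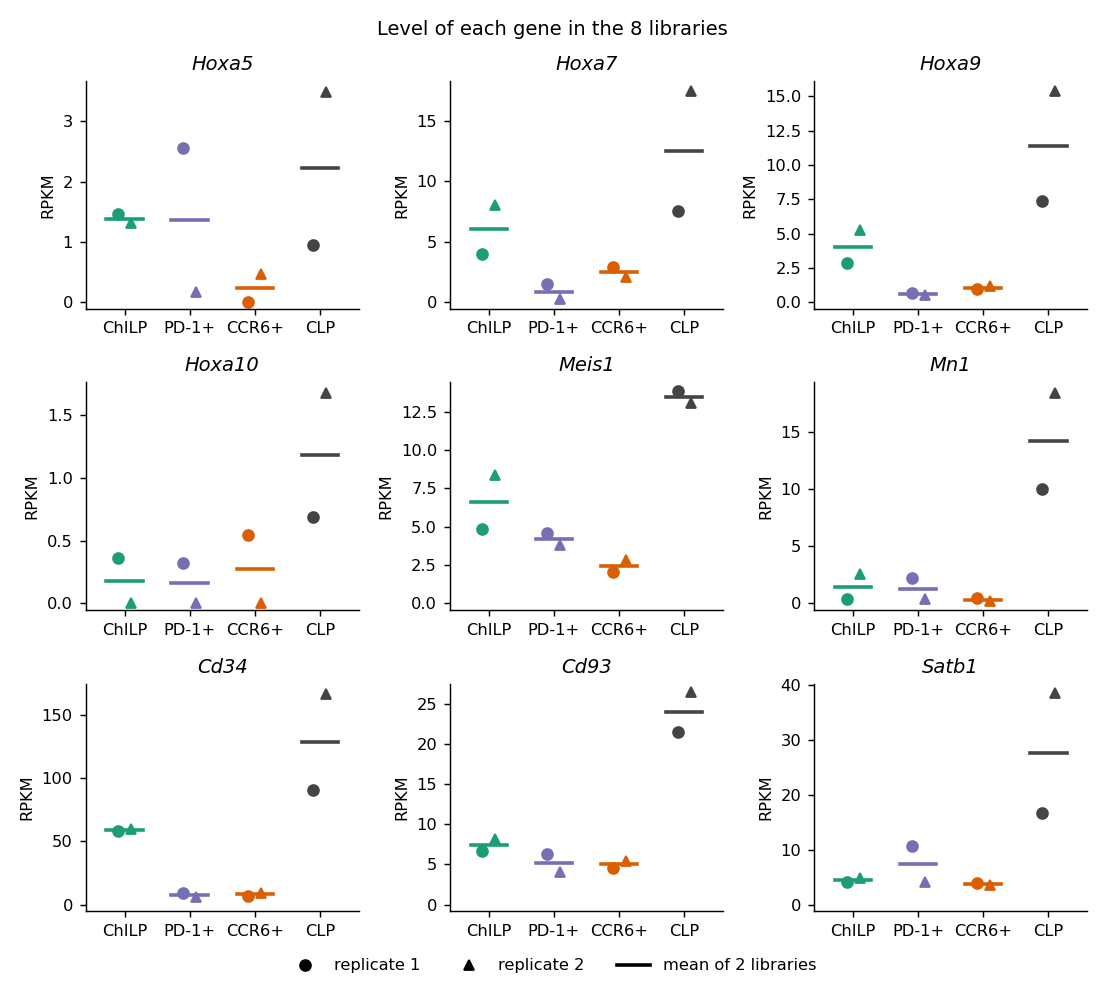
Level of each of the 9 genes in RPKM (vertical axes, linear from 0) in the 2 libraries of each group; circles are replicate 1, triangles replicate 2 and bars the mean. CLP stands highest for 7 genes with no overlap, and Cd34 shows the step between ChILP, at 58.4 and 59.8 RPKM, and the captured groups, at 6.15 to 9.42.

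The first comparison stated in the study's design, ChILP against CLP, asks what sets ChILP apart from the earlier CLP. None of the 9 genes was called by edgeR's quasi-likelihood test at an adjusted p under 0.05, where 0.022% of all 13619 tested genes were called; 792 genes had an unadjusted p under 0.05. All 9 fitted values were below 0, with a median log2 fold change of -1.41, against 0.05 over all genes. Both ChILP libraries lay below both CLP libraries for 7 of the 9 genes, as for 18.6% of tested genes. In bulk samples, fewer cells of a type and less RNA per cell cannot be told apart.

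Cd93 came nearest to a call in ChILP, with a log2 fold change of -1.63 ± 0.25 (SE) and an adjusted p of 0.0826. Satb1 followed at -2.55 ± 0.47 and 0.126, Cd34 at -1.05 ± 0.28 and 0.391, and Mn1 at -3.21 ± 1.01 and 0.565. Meis1 had -0.97 ± 0.38, Hoxa9 -1.41 ± 0.59 and Hoxa7 -0.97 ± 0.79, with adjusted p of 0.783, 0.848 and 1. The DESeq2 Wald test called Cd93, Satb1, Mn1 and Cd34 lower in ChILP, at adjusted p of 2.81e-06, 1.97e-05, 0.0275 and 0.0395, where it called 1.93% of tested genes and 1.09% lower. Cd93 was called by edgeR too when only the 4 libraries compared were fitted (adjusted p = 0.0389) and with no filter on low counts (0.0195).

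Against CLP, PD-1+ cells had lower Hoxa7, Hoxa9, Cd34 and Cd93. These 4 of the 9 genes were called lower, where 7.31% of tested genes were called and 2.83% were called lower. Cd34 averaged 7.56 ± 1.998 RPKM in PD-1+ cells and 129 ± 53.6 in CLP (SD, n = 2 each), a log2 fold change of -3.81 ± 0.32 (SE) with an edgeR adjusted p of 0.00596. That was the lowest adjusted value of this comparison, shared with Flt3, and by unadjusted p Cd34 had rank 2. Hoxa9 averaged 0.592 ± 0.148 RPKM in PD-1+ cells and 11.4 ± 5.66 in CLP, a change of -3.97 ± 0.66 (adjusted p = 0.0171). Hoxa7 changed by -3.59 ± 0.88, and its adjusted p of 0.04996 lay just inside the threshold. Cd93 changed by -1.94 ± 0.25 (adjusted p = 0.0107).

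The other genes were not called in PD-1+ cells: Meis1 had -1.42 ± 0.38 (adjusted p = 0.0635), Satb1 -1.63 ± 0.46 (0.0710) and Mn1 -3.22 ± 1.02 (0.0982). Hoxa5 had -0.45 ± 1.78 and Hoxa10 -2.63 ± 2.78, with errors as large as the values or larger. Both PD-1+ libraries lay below both CLP libraries for 8 of the 9 genes, all but Hoxa5, as for 38.7% of tested genes. Without CLP replicate 2, the call of Cd34 alone was left (adjusted p = 0.0462) and 8 genes were called in all; without PD-1+ replicate 2, Cd34 and Cd93 were called. Hoxa7 also lost its call without CLP replicate 1 (adjusted p = 0.0754), with DESeq2 size factors (0.0510), with summed transcripts (0.0637) and with only the libraries compared (0.102), and was called in 7 of 15 alternatives in all. Satb1 gained a call without PD-1+ replicate 1 (0.0328).

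CCR6+ cells had lower Hoxa9, Meis1, Mn1, Cd34, Cd93 and Satb1 than CLP. These 6 of the 9 genes were called lower, where 11.4% of tested genes were called and 4.79% were called lower. Cd34 averaged 8.17 ± 1.77 RPKM in CCR6+ cells and 129 ± 53.6 in CLP (SD, n = 2 each), a log2 fold change of -3.62 ± 0.31 (SE, edgeR adjusted p = 0.00471). Mn1 changed most, by -5.09 ± 1.13 (adjusted p = 0.0291), between 0.332 ± 0.200 RPKM in CCR6+ cells and 14.2 ± 5.94 in CLP. Meis1 changed by -2.14 ± 0.39 (0.0170), between 2.43 ± 0.546 RPKM in CCR6+ cells and 13.4 ± 0.550 in CLP.

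Hoxa9 changed by -3.06 ± 0.63 in CCR6+ cells (adjusted p = 0.0232), Satb1 by -2.49 ± 0.48 (0.0190) and Cd93 by -1.92 ± 0.25 (0.00734). Hoxa7 had -1.96 ± 0.82 and was not called (0.168), nor were Hoxa5, at -2.81 ± 1.92, and Hoxa10, at -1.75 ± 2.70. Both CCR6+ libraries lay below both CLP libraries for all 9 genes, as for 45.7% of tested genes. Without CLP replicate 2, only Cd34 was called (0.0332) and 83 genes were called in all; without either CCR6+ replicate, Cd34 and Cd93 were called. Without CLP replicate 1, Meis1 (0.0674) and Mn1 (0.0533) lost their calls.

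With ChILP, PD-1+ and CCR6+ cells weighted equally against CLP, Cd34, Cd93, Satb1, Hoxa9, Mn1 and Meis1 were called lower, 6 of the 9 genes, where 4.19% of tested genes were called and 1.85% were called lower. Cd34 changed by -2.83 ± 0.21 (edgeR adjusted p = 0.00293), Cd93 by -1.83 ± 0.18 (0.00552), Satb1 by -2.22 ± 0.34 (0.0178) and Hoxa9 by -2.81 ± 0.43 (0.0187). Mn1 changed by -3.84 ± 0.70 (0.0307) and Meis1 by -1.51 ± 0.28 (0.0321), while Hoxa7, at -2.17 ± 0.59, was not called (0.0816). The 9 genes had a median of -2.22, against -0.06 over all genes. These comparisons share the 2 CLP libraries, and Cd34 alone was called without CLP replicate 2 (0.0339), when 5 genes were called in all. Meis1 lost its call without ChILP replicate 1 (0.0508), CLP replicate 1 (0.159) or CCR6+ replicate 1 (0.0606), and Mn1 without CLP replicate 1 (0.0573) or either CCR6+ replicate (0.0536 and 0.0608); Hoxa7 gained one without PD-1+ replicate 1 (0.0215).

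**Figure D2:**
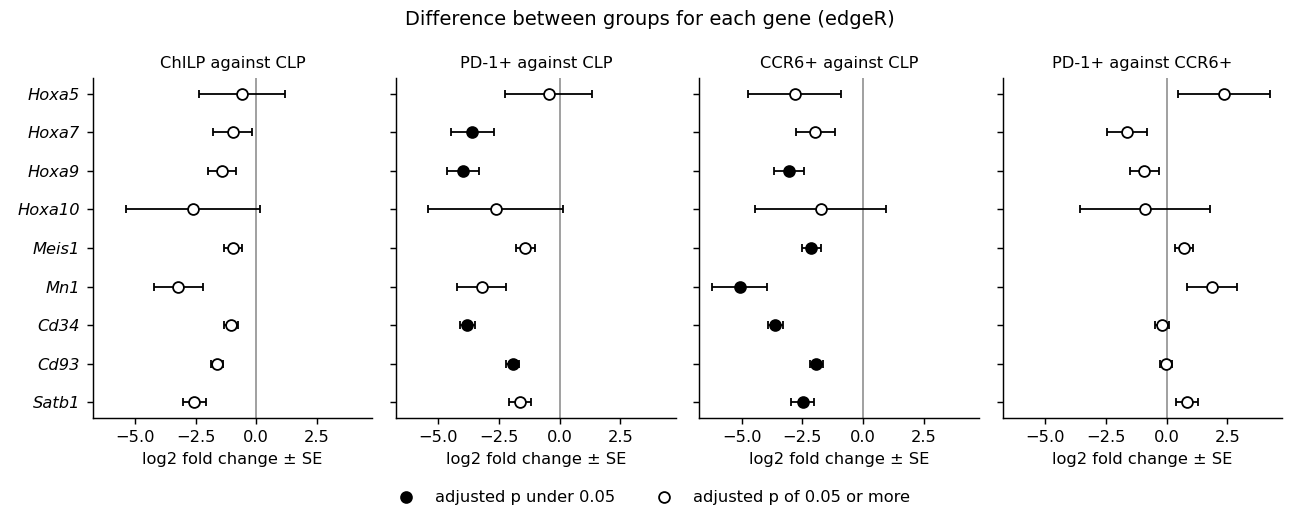
Log2 fold change of each gene with its SE (horizontal axis) in 4 comparisons, from edgeR; filled points have an adjusted p under 0.05. Every value against CLP is below 0, none is called in ChILP, 4 are called in PD-1+ and 6 in CCR6+ cells, and none is called between PD-1+ and CCR6+ cells.

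The second comparison of the design, PD-1+ against CCR6+ cells, asks which genes are particular to either population. None of the 9 genes was called, and neither was any other gene (0% by edgeR, lowest adjusted p 0.331); 801 genes had an unadjusted p under 0.05, and DESeq2 called 131 (0.962%), none of them among the 9. Meis1 stood at 4.56 and 3.83 RPKM in PD-1+ cells, against 2.04 and 2.81 in CCR6+ cells, a log2 fold change of 0.72 ± 0.38. Satb1 had 0.86 ± 0.46. Hoxa7 had -1.63 ± 0.83 and Hoxa9 -0.91 ± 0.61, the opposite sign from Meis1. Both PD-1+ libraries lay above both CCR6+ libraries for Meis1 and Satb1, as for 19% of tested genes, and below them for Hoxa7 and Hoxa9, as for 14.2%; each of these 4 genes had an adjusted p of 0.850.

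Mn1 had 1.87 ± 1.03 between PD-1+ and CCR6+ cells and Hoxa5 2.36 ± 1.89, both resting on PD-1+ replicate 1, where Mn1 stood at 2.19 and Hoxa5 at 2.57 RPKM. Without that library Hoxa5 had -0.57 and Mn1 0.25. Cd34 and Cd93 lay near 0, at -0.19 ± 0.29 and -0.02 ± 0.24, and their sign turned with the library left out.

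PD-1+ and CCR6+ cells together were set against ChILP, a comparison added after the data were seen. All 3 share the ChILP surface gate. The captured cells differ from ChILP in the route of enrichment and were further gated on PD-1 and CCR6. Cd34 and Hoxa9 were called lower in the captured cells, where 12.2% of tested genes were called and 6.19% were called lower. Cd34 changed by -2.67 ± 0.24 (edgeR adjusted p = 0.00403), between 6.15 to 9.42 RPKM in the captured libraries and 58.4 to 59.8 in ChILP. Hoxa9 changed by -2.10 ± 0.49 (0.0317), a call that was lost without either ChILP replicate (0.0568 and 0.236), either CCR6+ replicate (0.0732 and 0.0624) or PD-1+ replicate 2 (0.0575). Hoxa7 had -1.81 ± 0.67 (0.118) and gained a call without PD-1+ replicate 1 (0.0291), and Meis1 had -0.81 ± 0.32 (0.139). Cd93, Satb1 and Mn1 had -0.30 ± 0.21, 0.49 ± 0.40 and -0.95 ± 0.82, none of them called. The difference in Cd34 and Hoxa9 between captured cells and ChILP cannot be told apart from the differences in enrichment route and in the PD-1 and CCR6 gates.

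Along the cluster, RNA was concentrated on Hoxa7 and Hoxa9. Of the Hoxa genes in the tables, 9 had a read in at least 1 of the 8 libraries, and 5 had enough reads to be tested. Summed over the cluster, Hoxa RNA stood at 8.91 and 15.6 RPKM in ChILP, 5.53 and 0.928 in PD-1+, 4.37 and 4.15 in CCR6+, and 19.0 and 40.1 in CLP libraries. Hoxa7 and Hoxa9 supplied 76.9% and 85.1% of that sum in ChILP, 39.4% and 79.7% in PD-1+, 87.5% and 79.2% in CCR6+, and 78.3% and 81.7% in CLP libraries. PD-1+ replicate 1 stands apart here because Hoxa5 alone supplied 2.57 of its 5.53 RPKM. Hoxa3 (NM_010452) was the other tested gene of the cluster, with 0 and 0.357 RPKM in ChILP, 0.460 and 0.0242 in PD-1+, 0 and 0.0270 in CCR6+, and 1.03 and 1.48 in CLP libraries, and it was not called in any of the 6 comparisons.

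Non-coding transcripts of the cluster share its genes' sites. The antisense transcript 2700086A05Rik, which overlaps Hoxa5 on the other strand in GENCODE M21, had 0 and 2 reads in ChILP libraries, 69 and 0 in PD-1+, 0 and 12 in CCR6+, and 12 and 14 in CLP. Hoxa5 had 70 and 5 reads in the same PD-1+ libraries. The strand setting of the counts is not given in the sources used here, so reads of Hoxa5 and 2700086A05Rik cannot be told apart. Mira (NR_045199), which overlaps the annotated 3′ end of Hoxa7 in GRCm38, had 0 to 12 reads in ChILP and PD-1+ libraries, 30 and 0 in CCR6+ and 7 and 42 in CLP.

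**Figure D3:**
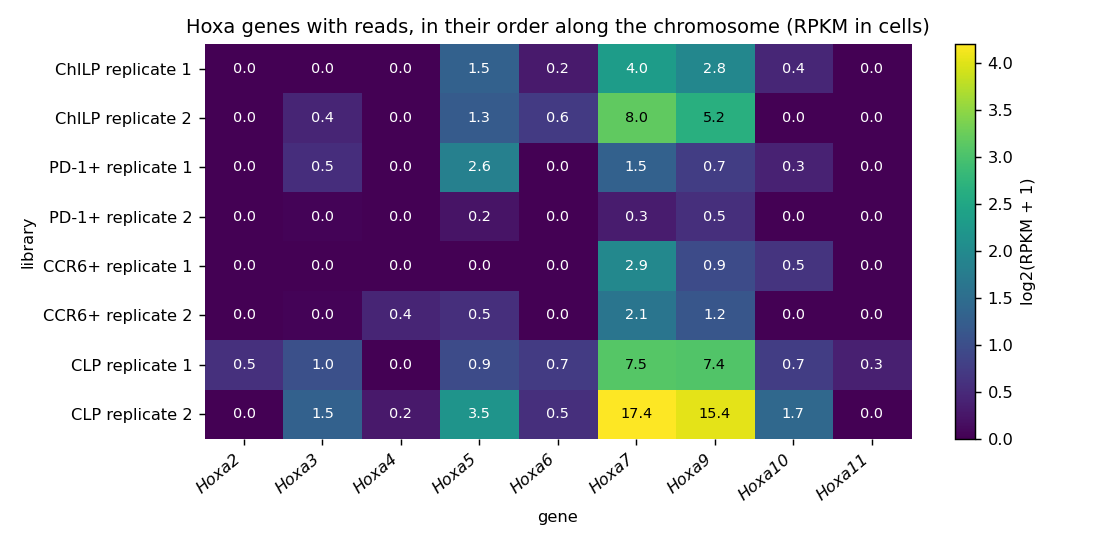
RPKM of the 9 Hoxa genes with reads (columns, in their order along the chromosome) in the 8 libraries (rows); colour is log2(RPKM + 1). Hoxa7 and Hoxa9 stand out in every CLP and ChILP library and reach 17.4 and 15.4 RPKM in CLP replicate 2, while the ends of the cluster are at or near 0.

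The other Hox clusters held little RNA. Of 10 Hoxb genes, 4 had no read in any library and 2 were tested, and the highest value of any was 2.47 RPKM, for Hoxb2 in CCR6+ replicate 1. Of 9 Hoxc genes 8 had no read, and of 9 Hoxd genes 7 had none, with highest values of 0.251 and 0.449 RPKM; none of either cluster was tested. Hoxb2 stood at 0.538 and 0 RPKM in ChILP, 0 and 0 in PD-1+, 2.47 and 0.632 in CCR6+, and 1.32 and 1.05 in CLP libraries, and neither it nor Hoxb4 was called in any comparison.

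Among the TALE genes other than Meis1, calls were limited to Tgif1 and Tgif2. Of 10 TALE genes, which include the PKNOX and TGIF factors, 9 were tested and none was called in ChILP against CLP. Tgif2, a TALE repressor, was called lower in PD-1+ cells (-2.38 ± 0.54, adjusted p = 0.0407) and in CCR6+ cells (-2.57 ± 0.55, 0.0263), and Tgif1 in CCR6+ cells (-1.56 ± 0.30, 0.0190), all against CLP by edgeR. That is 1 of 9 in PD-1+ cells, where 7.31% of all tested genes were called, and 2 of 9 in CCR6+ cells, where 11.4% were. Meis3 stood at 11.0 and 6.81 RPKM in PD-1+ cells, against 1.73 and 1.58 in CCR6+ cells, and was not called (2.34 ± 0.88, adjusted p = 0.815). The median of the TALE list was -0.55 in ChILP, 0.24 in PD-1+ and -0.16 in CCR6+ cells against CLP.

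The MLL complex and its cofactors, which keep Hoxa genes active, and the Polycomb proteins, which silence them, were tested as lists of 12 and 14 genes. None of 12 MLL genes was called against CLP in any group, with medians of -0.13 in ChILP, -0.29 in PD-1+ and -0.43 in CCR6+ cells; Ash2l, a core subunit, was called lower in the captured cells against ChILP (-0.85 ± 0.20, adjusted p = 0.0330). Of 14 Polycomb genes, Cbx2 was called lower in CCR6+ cells against CLP (-3.47 ± 0.76, 0.0275) and Cbx7 higher in the captured cells against ChILP (1.76 ± 0.39, 0.0282). Single calls in lists of this size are near the shares of all tested genes called in these comparisons, 11.4% in CCR6+ cells and 12.2% in the captured cells. Cbx2 stood at 1.75 and 0.807 RPKM in CCR6+ libraries and 17.4 and 18.2 in CLP libraries. The Polycomb medians against CLP were -0.15 in ChILP, -0.02 in PD-1+ and -0.22 in CCR6+ cells.

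Of 12 genes known as targets of HOXA9 and MEIS1, some fell and others rose. Against CLP, ChILP had 1 called lower, the sort marker Flt3 (-3.94 ± 0.39, edgeR adjusted p = 0.0495). PD-1+ cells had 2 lower, Flt3 and Myb, a factor of progenitor growth (-2.06 ± 0.25, 0.0106), and 2 higher, the survival gene Bcl2 (2.47 ± 0.48, 0.0265) and the growth factor Igf1 (2.93 ± 0.65, 0.0376). CCR6+ cells had 4 lower, Flt3, Myb (-2.89 ± 0.26, 0.00471), Sox4 (-3.87 ± 0.71, 0.0171) and the cell cycle kinase gene Cdk6 (-1.94 ± 0.42, 0.0263), and 2 higher, Igf1 (2.91 ± 0.65, 0.0294) and the kinase gene Pim1 (1.67 ± 0.37, 0.0289). Myb stood at 65.7 and 53.8 RPKM in ChILP, 21.3 and 15.0 in PD-1+, 8.74 and 10.6 in CCR6+, and 70.8 and 112 in CLP libraries. On the log2 scale, Myb had -0.54 ± 0.24 between ChILP and CLP and -1.93 ± 0.20 between the captured cells and ChILP. Over all tested genes, 0.022% were called in ChILP, 7.31% in PD-1+ and 11.4% in CCR6+ cells against CLP. The list's median against CLP was -0.38 in ChILP, -0.31 in PD-1+ and -0.40 in CCR6+ cells.

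Other stem and multipotent progenitor genes, a list of 28, were mixed. Against CLP, Flt3 was the 1 gene called in ChILP, and Flt3 and Robo4 were among 3 called lower in PD-1+ cells. In CCR6+ cells Flt3, Eng, Mycn and Robo4 were called lower, and Ly6a and Cd44 higher. The shares of all tested genes called were 0.022%, 7.31% and 11.4% in the same order. Robo4, a receptor of stem and endothelial cells, had no read in the PD-1+ libraries, 6 and 12 reads in CCR6+ libraries and 155 and 291 in CLP libraries. Ly6a, which encodes Sca-1, a marker used to sort CLP, was higher in CCR6+ cells by 1.78 ± 0.43 (edgeR adjusted p = 0.0363), opposite to Cd34. Erg, a factor of stem cells and endothelium, stood at 0.373 and 1.14 RPKM in PD-1+, 0 and 1.21 in CCR6+, and 12.4 and 15.6 in CLP libraries without a call (adjusted p = 0.126 and 0.0928). The list's median against CLP was 0.06 in ChILP, -0.32 in PD-1+ and -0.08 in CCR6+ cells.

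Relatives of the surface proteins were low. Of CD34's sialomucin relatives, Podxl reached 0.182 and Podxl2 1.65 RPKM in any library. Of CD93's lectin relatives, Cd248 stood at 4.92 and 4.02 RPKM in ChILP and 0.766 and 4.64 in CLP libraries, with 1 read in all in the PD-1+ libraries and none in the CCR6+ libraries; it was called lower in both against CLP (edgeR adjusted p = 0.0465 and 0.0293). Thbd, the thrombomodulin gene, had no call, at 3.17 to 9.52 RPKM outside CLP and 10.004 and 6.67 in CLP.

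Part of the list of early lymphoid genes was called lower in the captured groups. Of 10 such genes, none was called in ChILP against CLP, though all 10 fitted values were below 0. In PD-1+ cells Dntt, Rag2, Notch1 and Cd27 were called lower, and in CCR6+ cells those and Rag1. Of all tested genes, 2.83% were called lower in PD-1+ and 4.79% in CCR6+ cells. Dntt, the polymerase that adds bases in antigen receptor joining, stood at 56.9 and 70.5 RPKM in ChILP, 46.1 and 14.8 in PD-1+, 4.22 and 11.3 in CCR6+, and 818 and 1449 in CLP libraries. Notch1, the receptor that starts T lineage fate, changed by -1.89 ± 0.32 in PD-1+ cells (edgeR adjusted p = 0.0189) and -1.61 ± 0.32 in CCR6+ cells (0.0214), sizes close to that of Cd93. The list's median over the 3 groups was -1.20, against -2.22 for the 9 genes.

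**Figure D4:**
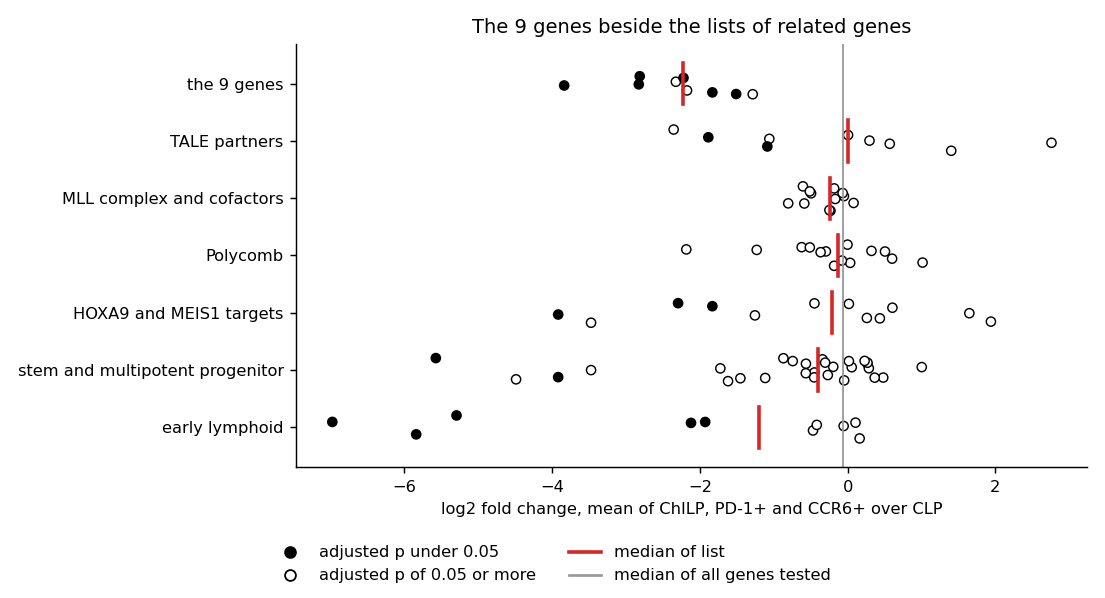
Log2 fold change of the mean of ChILP, PD-1+ and CCR6+ over CLP (horizontal axis) for the tested genes of 7 lists (rows); filled points have an adjusted p under 0.05, red bars are medians of each list and the grey line is the median of all genes. The 9 genes lie wholly below 0, with a median of -2.22, while the TALE, Polycomb and target lists straddle the grey line. Of the 12 MLL genes 11 lie below 0, with a median of -0.24. The stem and early lymphoid lists have medians of -0.39 and -1.20.

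Transcripts of other marrow cells moved with these differences. The summed RPKM of 10 early myeloid genes (Mpo, Elane and others) was 8528 to 10069 in ChILP, 886 to 1723 in PD-1+, 1331 to 2044 in CCR6+ and 7097 to 7188 in CLP libraries; CD34 is also a marker of such progenitors. Across the captured groups and CLP, that sum was arranged like Cd34, but in ChILP it was above CLP while Cd34 was below. Their part in the fall of Cd34, Hoxa9 and Meis1 was not tested. The list was detected in every group, with no gene at 0 in both libraries of a group. Its members did not all move the same way: against CLP, 5 of the 10 were called lower in PD-1+ cells and 5 in CCR6+ cells, Mpo and Elane among them in both, while the growth factor receptor genes Csf1r and Csf3r were called higher in both. Of all tested genes, 2.83% were called lower and 4.47% higher in PD-1+ cells, and 4.79% and 6.59% in CCR6+ cells.

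Transcripts of mature cells were arranged the other way. Sums of 10 neutrophil and monocyte genes were 2043 to 7205 RPKM in ChILP, 16501 to 33454 in PD-1+, 22539 to 36181 in CCR6+ and 1489 to 5573 in CLP libraries. Sums of 10 erythroid and megakaryocyte genes were 1703 to 7293 in ChILP, 28064 to 32347 in PD-1+, 33011 to 40273 in CCR6+ and 1452 to 5117 in CLP libraries. Since RPKM is a share of each library, such transcripts also take from the share left for Cd34 and the other genes; the edgeR scaling between libraries gave the fold changes above, and the part of these transcripts in them was not tested.

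Endothelial and stromal genes, some of which share CD34 and CD93 with stem cells, summed to 123 to 282 RPKM in ChILP, 50.9 to 64.2 in PD-1+, 54.1 to 70.0 in CCR6+ and 356 to 418 in CLP libraries, and their part was not tested either. Egfl7 stood at 37.4 and 39.6 RPKM in ChILP, 7.38 and 9.97 in PD-1+, 12.0 and 7.21 in CCR6+, and 139 and 264 in CLP libraries. It was the 1 gene of the 10 called in PD-1+ and in CCR6+ cells against CLP, where 7.31% and 11.4% of tested genes were called. Of the 10 fitted values, 7 were below 0 and 3 above 0 in each of these comparisons, and 6 were below and 4 above in ChILP. Sums of 10 B lineage genes were 28.6 to 101 RPKM in ChILP, 249 to 301 in PD-1+, 344 to 360 in CCR6+ and 291 to 360 in CLP libraries. The T cell list, with 9 of 10 genes in the tables, summed to 52.9 to 84.1, 92.1 to 172, 77.3 and 34.2 to 73.7 RPKM in ChILP, PD-1+, CCR6+ and CLP. The mast cell and basophil list summed to 348 to 1003, 787 to 2031, 1144 to 2343 and 703 to 741 RPKM in the same order, with Mcpt4 at 0 in both libraries of ChILP, CCR6+ and CLP, and the plasmacytoid dendritic list to 269 to 293, 395 to 450.5, 509.98 to 543 and 326 to 368. A CLP list joined genes of the sort gate (Flt3, Il7r, Ly6a and Kit) to Dntt and Rag1, which are not in the gate. It summed to 1000.43 to 1709 RPKM in CLP and 105 to 167 elsewhere, and most of the CLP sum was Dntt. A ChILP list joined gate genes (Itga4, Itgb7, Il7r and Kit) to the factors Id2, Gata3, Zbtb16 and Tcf7, which were not sorted for. It summed to 455 to 1578 RPKM in the 3 groups of that gate and 135 to 136 in CLP.

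**Figure D5:**
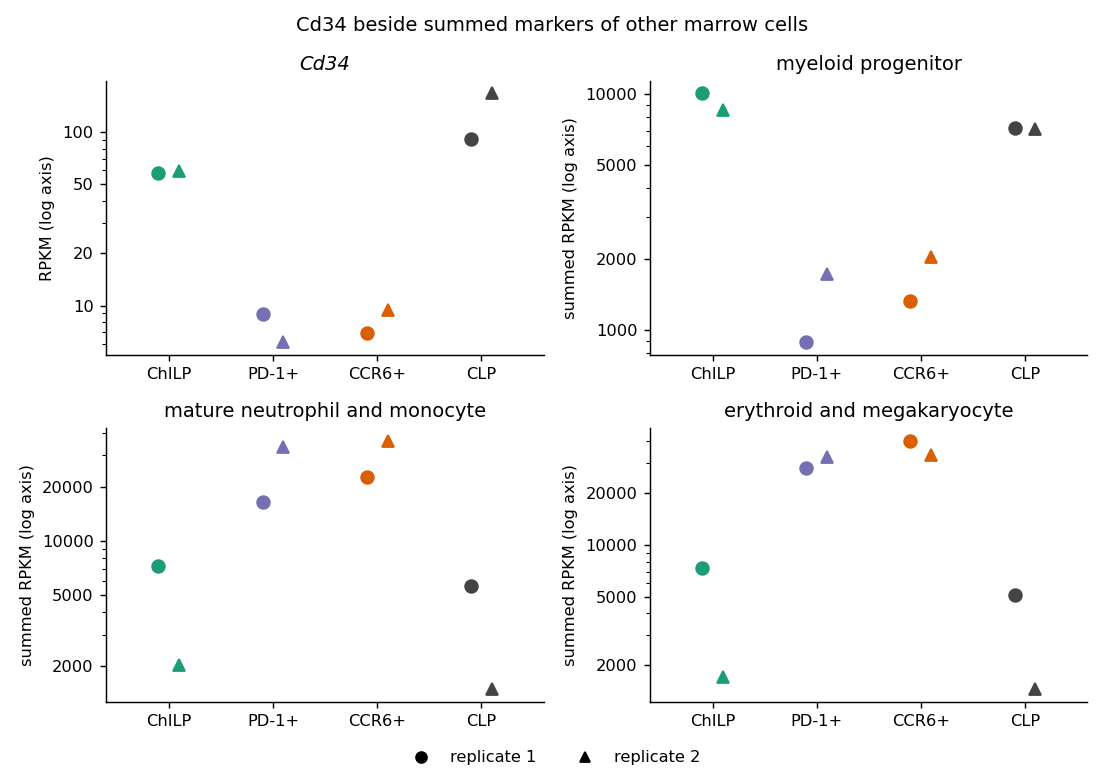
Cd34 and the summed RPKM of 3 marker lists (vertical log axes) in the 2 libraries of each group; circles are replicate 1 and triangles replicate 2. Early myeloid genes are high in ChILP and CLP, at 7097 RPKM or above, and low in the captured groups, like Cd34, while mature myeloid and erythroid genes are arranged the other way.

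Some genes outside the group followed its members closely over the 8 libraries. Among 8976 genes with at least 5 RPKM in 1 group, the nearest to Hoxa9 by Pearson's r of log2(RPKM + 1) were Lsg1 (0.991), Tcea1 (0.989), Tspan2 (0.980) and Tspan4 (0.978). For Meis1 they were 2700089E24Rik (0.992), Nisch (0.979), Arpp21 (0.975) and Pcbd1 (0.975). For Cd34 they were Rpl15 (0.996), Lsm3 (0.993), Lgals9 (0.992) and Stmn1 (0.991), and for Satb1 Tmem175 (0.997), Tubgcp5 (0.992), Mta3 (0.989) and Lax1 (0.971). These values describe 8 libraries in 4 groups, which share a gate and a route of enrichment within a group, and were picked as the highest of all genes compared. Hoxa5 and Hoxa10 stay below 5 RPKM in every group mean and so could not be among the genes compared. None of the others of the 9 genes was among the 4 nearest of Hoxa9, Meis1, Cd34 or Satb1.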

How the data were processed

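Sorted progenitors were made into 8 Smart-seq2 libraries, a method that amplifies full-length RNA of few cells, and read at 50 bases, per the labels' protocols. The submitters' processing notes list CASAVA 1.8.4, Bowtie2 2.2.2 and mm9. The sources used here do not give the read counter, its strand setting or the annotation release. Each library's table, as the authors deposited it, lists 29257 RefSeq transcripts with a read count and an RPKM. Dividing the deposited count by transcript length and by 1 total per library gives the deposited RPKM.

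A gene stands for its transcript of largest mean count; 4 of the 9 genes have several transcripts, and isoforms share reads. The counts of all 8 libraries entered 1 fit in edgeR 4.0.16 (R 4.3.3) because each group has only 2: TMM scaling, filterByExpr (minimum count 10) and the robust two-sided quasi-likelihood F test. All 9 genes were among the 13619 tested. A call is an adjusted p under 0.05, by the method of Benjamini and Hochberg across every tested gene. The common coefficient of biological variation came to 0.526, on 4 residual degrees of freedom. An exact permutation test of 2 libraries against 2 cannot go below p = 0.333 and was not used. The fit was also run on counts simulated with its own estimates of spread, which cannot test whether those estimates hold. Alternatives were DESeq2 1.42.0 (size factors, Wald test), limma 3.58.1 on log2(RPKM + 1) and log2(RPKM + 0.1), other filters, other transcripts, only the libraries compared, a replicate block and libraries left out; a lone library is then assumed to vary like the other groups. Leaving replicate 2 of both captured populations out rests on an earlier result of these data.

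The 9 genes, 11 lists of related genes and 12 of cell markers were chosen with earlier results of these data known. Named from the lists are called genes and, per list and comparison, up to 3 with the largest change whose higher group averages at least 5 RPKM. Hoxa3, the Hoxb genes, the CD34 and CD93 relatives, Erg and the marker genes were named after their values were seen. Some other genes of these lists are not reported here. Promoters came from RefSeq (GRCm38.p6), matched by symbol. Reads are not molecules after amplification, and counting precision is lowest for Hoxa5 and Hoxa10.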

Additional observations from a re-analysis of the deposited data

How the results depend on the processing

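Across the alternatives tried, Cd34 kept its call in all 15 settings of PD-1+ against CLP (adjusted p 8.2e-28 to 0.0465), all 15 of CCR6+ against CLP and all 18 of the 3 groups against CLP. The number of the 9 genes called lower in PD-1+ cells was 7 by the DESeq2 Wald test and by limma with either pseudocount (1 and 0.1), whose filter of 1 RPKM in 2 libraries left Hoxa10 out. In ChILP it was 4 by the Wald test and 1 each with no filter and with only the libraries compared. In the captured cells against ChILP it was 1 with only the libraries compared. Leaving out 1 library at a time gave 1 to 5 in PD-1+, 1 to 4 in CCR6+ and 1 to 7 in the 3 groups, all against CLP, and 1 to 3 in the captured cells against ChILP. Leaving replicate 2 of both captured populations out gave 2 in PD-1+ cells against CLP and 1 in the captured cells against ChILP. The cause of these moves was not tested.

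Of all genes, ChILP against CLP gave 3 calls, but 0 with DESeq2 size factors, 263 by the Wald test, 55 and 46 by limma, 63 with no filter, 15 with a filter of 5 RPKM, 59 with only the libraries compared, 0 with summed transcripts and 0 to 24 with 1 library left out. PD-1+ against CLP gave 995, but 2288, 2147 and 1870 by the Wald test and limma, 208 with only the libraries compared, 8 to 815 with 1 library left out and 414 without replicate 2 of both. CCR6+ against CLP gave 1549, but 2767, 3114 and 2797 by the Wald test and limma and 83 to 770 with 1 library left out. The 3 groups against CLP gave 571, but 1809, 1586 and 1261 by the Wald test and limma and 5 to 946 with 1 library left out. PD-1+ against CCR6+ gave 0, but 131 by the Wald test, 2 by limma on log2(RPKM + 1), 0 to 36 with 1 library left out and 5 without replicate 2 of both. The captured cells against ChILP gave 1668, but 2814, 2927 and 2692 by the Wald test and limma, 248 to 1896 with 1 library left out and 1097 without replicate 2 of both.

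The fitted sign turned for values that were not called. Between PD-1+ and CCR6+ cells these were Cd93, at 0.03 by limma with either pseudocount (0.0269 and 0.0276), -0.30 to 0.20 with 1 library left out and 0.26 without replicate 2 of both, and Cd34, at -0.43 to 0.0428 and 0.17 under the same settings. Hoxa10 ranged over -6.55 to 5.72 and Hoxa5 over -0.57 to 8.29 there with 1 library left out. Against CLP, Hoxa5 ranged over -1.21 to 0.53 in ChILP and -3.35 to 0.66 in PD-1+ cells, and had 0.39 in PD-1+ cells without replicate 2 of both. In the captured cells against ChILP, Hoxa10 ranged over -2.89 to 6.01 and Mn1 over -1.74 to 0.95.

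With a replicate block the calls were 0 for ChILP, 632 for PD-1+ and 296 for the 3 groups, all against CLP, and 1 of the 9 genes in the captured cells against ChILP. Hoxa7 in PD-1+ cells (adjusted p = 0.0863), Mn1 in CCR6+ cells (0.0510), Meis1 (0.0540) and Mn1 (0.0559) in the 3 groups and Hoxa9 in the captured cells (0.0506) lost their calls under it. The numbers are shared by name only: same-numbered libraries of different groups deviated together with a correlation of -0.151 to 0.116. For the 3 groups against CLP, fitting only the libraries compared is the fit already given, and leaving out replicate 2 of both captured populations gives no value for ChILP against CLP. The filter of 5 RPKM dropped Hoxa5 and Hoxa10. Low counts limit Hoxa5 and Hoxa10, with no read in some libraries, and the part of depth in this was not tested.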

Other observations

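Some values of the 9 genes belong to no comparison. By transcript, both Cd34 forms in the tables were counted at nearly equal levels: NM_133654 stood at 59.7 and 61.3 RPKM in ChILP, 9.49 and 6.49 in PD-1+, 6.98 and 9.60 in CCR6+, and 93.2 and 172 in CLP libraries. The shorter Meis1 form, NM_010789, stood at 4.89 and 8.36 RPKM in ChILP, 4.54 and 3.79 in PD-1+, 2.07 and 2.79 in CCR6+, and 13.9 and 13.1 in CLP libraries. Such forms share most reads, so these values do not separate them. The precursor Mir196b, which lies within the annotated Hoxa9 gene in GENCODE M21, had 0 and 0 reads in ChILP, 6 and 0 in PD-1+, 0 and 1 in CCR6+, and 5 and 11 in CLP libraries.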
